A study of Mus musculus with 17 samples.

Results

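The serpins are a family of proteins that mostly inhibit serine proteases. They are described here as 9 mouse genes: Serpinb1a, Serpinb6a, Serpinb6b, Serpinb8, Serpinb9, Serpine2, Serpinf1, Serping1 and Serpinh1. The genes were found by symbol in a count table of 47069 genes, which holds 68 genes with a symbol starting Serpin. They were picked because Serpinb1a and Serpine2 are higher with miR-125b, so values of the miR-125b libraries against their controls are given as a description, with no test.

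RNA was sequenced from mouse fetal liver cells taken at E12.5 to E13.5 from a mouse strain that makes Cas9 and EGFP from the ROSA26 locus under the CAG promoter, so every group carries both. In 5 groups the first transgene was a guide RNA against Gata1 (sgGata1), and these cells are named Gata1s, after a shortened GATA1 protein, a transcription factor of blood cells. The second transgene was LUC (luciferase, 3 libraries) or Arid3a (3 libraries), with doxycycline at 1 µg/mL for 48 h, or sh-ctrl (a control hairpin, 3 libraries), shArid3a (a hairpin against Arid3a, 2 libraries, numbered 1 and 3) or miR-125b (a microRNA, 3 libraries), with 1 µg/mL for 10 days. The WT group (3 libraries) carried sgLuc and shLuc and had no doxycycline. The question of the series is what changing the level of Arid3a, a DNA-binding protein, does in Gata1s cells. The labels do not say whether libraries of a group came from separate animals or cultures, so p-values measure the spread between these libraries, which may be technical. They also do not say whether the cells with the guide were cloned.

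A serpin exposes a loop that the target protease cuts, and the cut serpin then traps the protease in a covalent complex. Clade B serpins, the genes named Serpinb, mostly stay inside the cell, where they act on proteases that leak from granules of myeloid cells and lymphocytes. Serpine2, Serpinf1 and Serping1 are secreted, and Serpinh1 stays in the endoplasmic reticulum, where it is a chaperone of collagen and inhibits no protease.

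The mature microRNA that defines the miR-125b group is shown first, because its seed sets which transcripts can pair with it. Capitals mark the seed, bases 2 to 8 from the 5′ end. RefSeq (GRCm38.p6) gives the same 22 bases for both loci, chr9:41581940-41581961 (Mir125b-1) and chr16:77646279-77646300 (Mir125b-2), each on the plus strand.
miR-125b-5p: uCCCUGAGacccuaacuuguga
The longest 3′ untranslated region (UTR) of each of the 9 genes was searched for CTCAGGG (a match to the seed), for CTCAGGGA (the same with a following A) and for TCAGGGA (which overlaps both). Serpinb9 held 1 match, to CTCAGGG, at base 1271 of its UTR of 2109 bases, and the other 8 genes held none. The site lies at chr13:33017108-33017136 on the plus strand, with the match in capitals.
Serpinb9 site: ctcagaaatgaCTCAGGGgctgaagatgc
Over all genes with an annotated 3′ UTR, 13.11% of 21022 genes hold CTCAGGG and 19.541% hold any of the 3 matches. These shares are not adjusted for UTR length, whose median over all genes was 960 bases. Apart from Serpinb8, at 3159 bases, the genes without a match had UTRs of 123 (Serpinb6a) to 808 bases (Serpine2). A match is a description of letters, not of pairing in these cells.

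Depth per library was 31339238 to 38678649 counts in the table of LUC and Arid3a, from 31992089 to 40859301 in the 10-day table and from 16362439 to 19212193 in the WT table. Levels are CPM, the counts of a gene per total of its library with TMM scaling, which was done within each table, so levels set side by side across tables carry no test. A level of 3 counts, the limit that a count of 0 allows, corresponds to 0.0734 to 0.0957 CPM in the 14 Gata1s libraries and 0.156 to 0.183 CPM in the WT libraries. These limits cover counting error only, since reads carried no molecular identifiers. Arid3a itself was at 67.1 ± 3.08 CPM (SD, n = 3) in LUC and 70.9 ± 11.3 CPM (n = 3) in the libraries labelled Arid3a, so its level does not separate those groups, and they are called the libraries labelled Arid3a throughout. It was at 52.9 ± 6.70 CPM in sh-ctrl (n = 3), 19.7 ± 1.03 CPM in shArid3a (n = 2) and 8.97 ± 1.60 CPM in miR-125b (n = 3). Among the libraries labelled Arid3a, replicate 1 stood apart in several serpins and in cell type markers, and the tests are given with and without it. Its summed markers, beside those of replicates 2 and 3, were 992 against 371 and 434 CPM for mast cells and basophils, 4895 against 3108 and 3279 CPM for megakaryocytes, 14.2 against 34.5 and 32.1 CPM for stromal cells and 132 against 312 and 271 CPM for erythroid cells. Their part in its serpin levels was not tested. Of the 8 stromal markers, only 1 had a mean of at least 1 CPM in the libraries labelled Arid3a. Col3a1, Dcn, Lum and Postn were at 0 there, so the stromal sum rests largely on 1 gene. Over the Gata1s libraries, 8 macrophage markers summed to at most 3.15 CPM, 8 hepatocyte markers to at most 5.84 CPM and 6 endothelial markers to between 109 and 190 CPM. Of the 6 endothelial markers, only 1 had a mean of at least 1 CPM in LUC, shArid3a and miR-125b, 2 in sh-ctrl and 3 in the libraries labelled Arid3a. Cdh5 was at 0 in each of these groups. Megakaryocyte genes (10 of 10 with a mean of at least 1 CPM in each group) summed to between 2945 and 4895 CPM in the Gata1s libraries and 1438 to 1623 CPM in WT. In whole-population RNA, fewer cells of a type and less RNA per cell cannot be told apart.

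Serpinb1a inhibits the neutrophil proteases elastase, cathepsin G and proteinase 3. The gene lies at chr13:32842092-32851185 on the minus strand (GRCm38) and is overlapped by no annotated gene. The level was 432, 283 and 286 CPM in the miR-125b libraries against 24.7, 18.7 and 23.5 CPM in sh-ctrl. All 3 miR-125b libraries lie above all 3 controls, with replicate 1 the highest. The means were 334 ± 85.4 CPM and 22.3 ± 3.19 CPM (SD, n = 3 each), and the fitted log2 fold change was 3.90.

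The shArid3a libraries held 10.9 and 25.8 CPM of Serpinb1a, on both sides of the range of sh-ctrl. The miR-125b mean is 18.2 times the shArid3a mean of 18.3 ± 10.5 CPM (n = 2). In the 48 h table, LUC libraries were at 25.3, 25.3 and 33.0 CPM and the libraries labelled Arid3a at 37.1, 13.8 and 12.6 CPM. Replicate 1 of the latter lies above every LUC library and the other 2 lie below every one. The 3 WT libraries, at 444, 347 and 347 CPM, are in the same range as miR-125b, but they stand in another table and differ in guide, second transgene and doxycycline together, so the groups were not compared by a test.

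**Figure D1:**
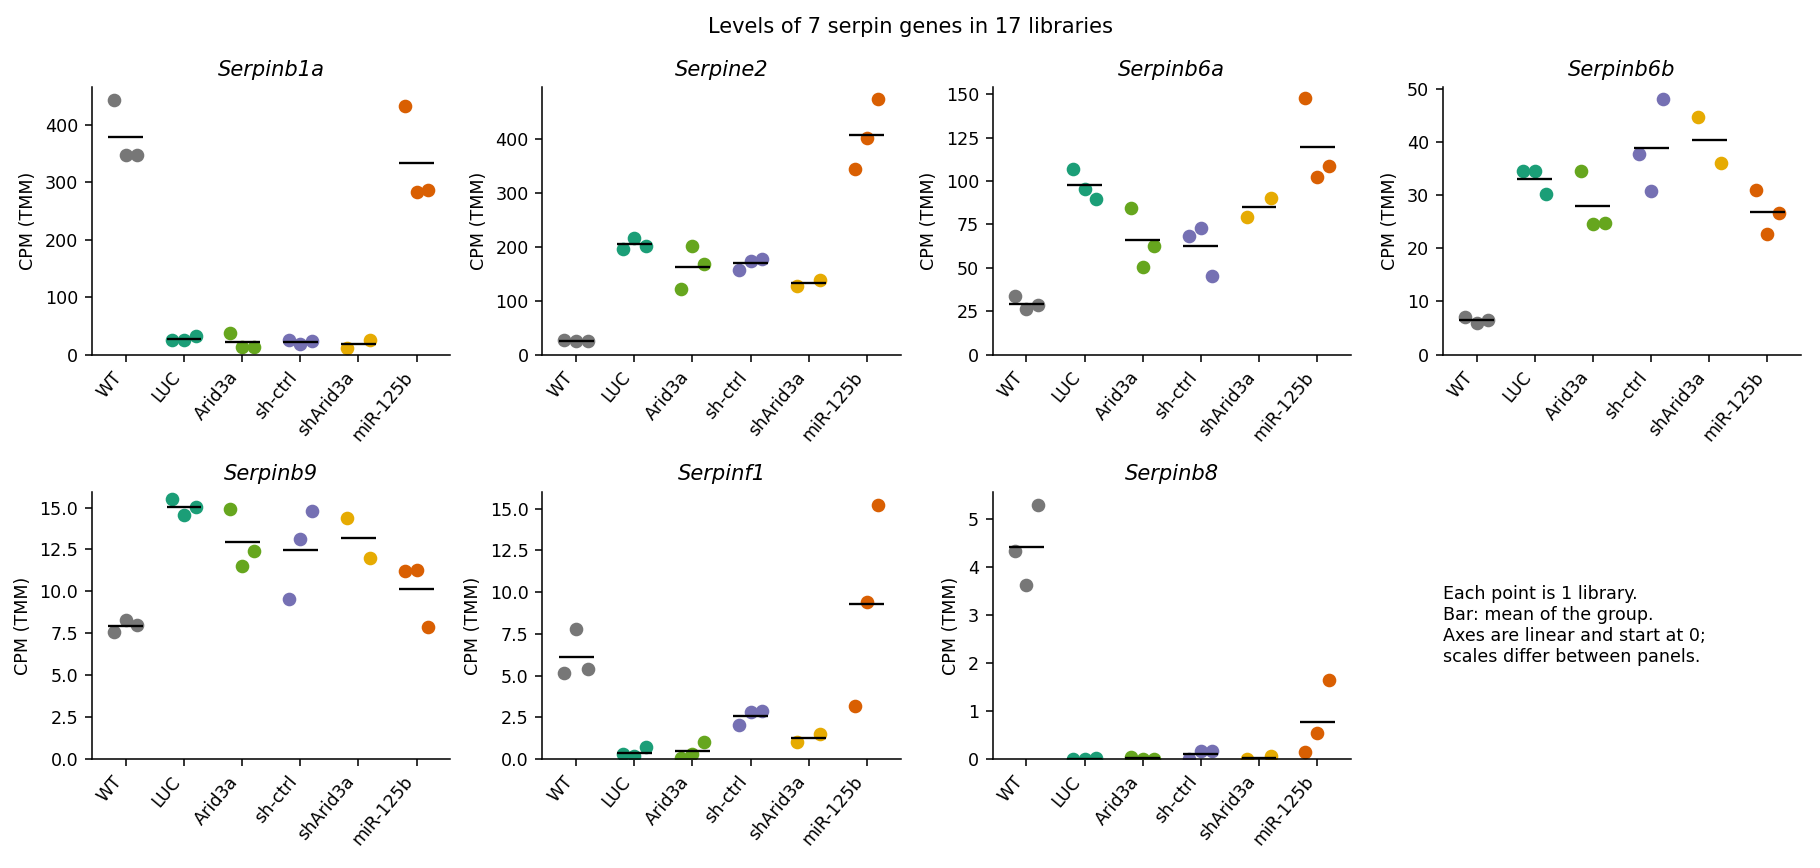
Level of 7 serpin genes in CPM (TMM scaling, linear axes from 0, scales differing between panels) in each of the 17 libraries (points) of 6 groups, with the group mean (bar). Serpinb1a stands at 283 to 432 CPM in miR-125b and at or below 37.1 CPM in every other Gata1s library, while Serpine2 is lowest in WT.

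Serpinb1a is best known from granulocytes, and the markers of those cells were measured in the same libraries. The 9 granulocyte markers (Mpo, Elane, Prtn3, Ctsg, Ltf, Camp, Ngp, S100a8 and S100a9) summed to 108, 78.5 and 149 CPM in miR-125b and to 46.5, 69.3 and 97.2 CPM in sh-ctrl. The 2 groups overlap in this sum. In sh-ctrl most of it is Prtn3, at a mean of 69.4 CPM there and 63.4 CPM in miR-125b (log2 fold change −0.13), so the overlap rests largely on 1 gene. In miR-125b, 4 of the 9 had a mean of at least 1 CPM and none was at 0 in every library, and in sh-ctrl 2 of the 9 did, with Camp, Ngp and S100a9 at 0. Of 5 of these genes that were tested, 4 (Mpo, Elane, Ctsg and Ngp) lie higher in all miR-125b libraries than in all sh-ctrl libraries, as do 22.0% of all genes. In sh-ctrl Ngp was at 0 and Elane at a mean of 0.163 CPM, against 1.21 CPM of Elane in miR-125b. Such genes can pass the filter on low counts only through libraries where they are high, so nothing is read from this count. WT libraries summed to between 14065 and 19268 CPM. LUC replicate 3 held 161 CPM against 5.51 and 6.34 CPM in the other LUC libraries, and it is also the highest of the 3 in Serpinb1a. Markers of mast cells and basophils (11 genes) summed to 608, 222 and 233 CPM in miR-125b, 392, 162 and 361 CPM in sh-ctrl and 1756 to 2055 CPM in WT. The miR-125b and sh-ctrl groups overlap in this sum, and in both, as in the libraries labelled Arid3a, replicate 1 is the highest in the sum and in Serpinb1a. Of the 11, all were tested in the 10-day table and 2 lie higher in all miR-125b libraries than in all controls, against 22.0% of all genes. They are Mcpt8 (0.871 to 43.7 CPM against 0.0565 to 0.122 CPM) and Prss34 (2.75 to 60.1 CPM against 0 to 0.293 CPM), named after their values were seen. The groups of the others overlap, with log2 fold changes from −2.60 (Tpsab1) to 2.80 (Fcer1a). Tpsb2, Mcpt4 and Gata2 were also below 0, and the remaining genes of the list were above it. The median over the list was 1.32, against −0.03 over all genes. Mcpt8 and Prss34, so low in sh-ctrl, can pass the filter on low counts only through libraries where they are high. Nothing is read from their count. The part of either cell type in the level of Serpinb1a was not tested.

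**Figure D2:**
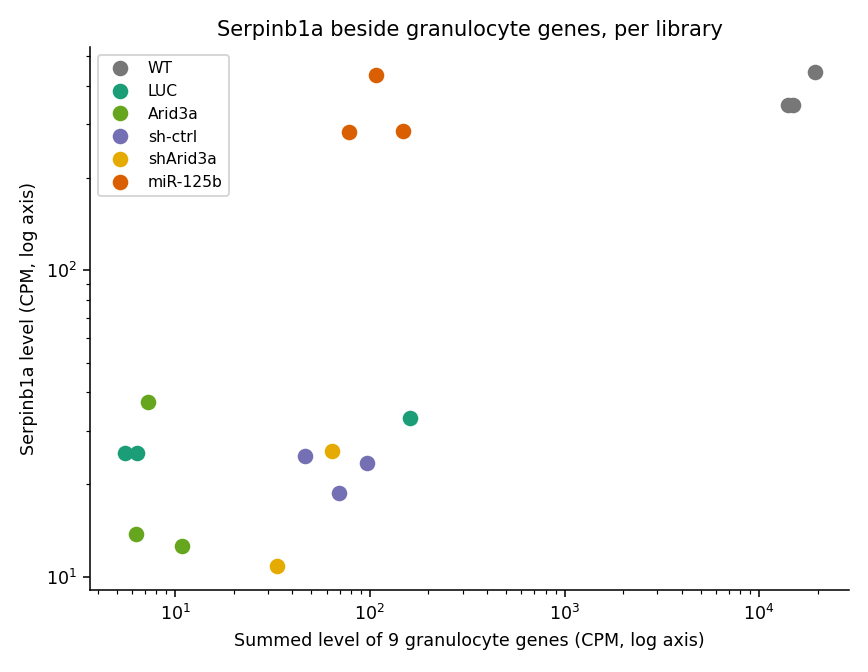
Serpinb1a level (CPM, log axis) against the summed level of 9 granulocyte genes (CPM, log axis), 1 point per library, coloured by group. The miR-125b libraries reach 283 to 432 CPM of Serpinb1a at 78.5 to 149 CPM of granulocyte genes, and the WT libraries reach a like level of Serpinb1a at 14065 to 19268 CPM. In sh-ctrl most of the granulocyte sum is Prtn3.

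Serpinb6a, an inhibitor of cathepsin G, lies at chr13:33917918-34002794 on the minus strand. Its level was 148, 103 and 108 CPM in miR-125b and 68.2, 73.2 and 45.5 CPM in sh-ctrl. All miR-125b libraries lie above all controls, and replicate 1 is again the highest. The means were 120 ± 24.7 and 62.3 ± 14.8 CPM (n = 3 each), with a log2 fold change of 0.94. The shArid3a libraries held 79.1 and 90.4 CPM, between those groups, and WT libraries 33.5, 26.2 and 28.4 CPM, below every Gata1s library. Ripk1, Nqo2 and 1110046J04Rik overlap the gene on the other strand and share 4.456%, 14.088% and 10.797% of its exon bases. Whether the authors' counting used strand is not given in the sources used here, so the level of Serpinb6a is uncertain by what those genes may add.

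Serpinb6b, a close copy of Serpinb6a, lies at chr13:32965209-32979067 on the plus strand. It was at 31.0, 22.7 and 26.6 CPM in miR-125b and 37.9, 30.9 and 48.2 CPM in sh-ctrl. The groups overlap only in that the highest miR-125b library is just above the lowest control, with a log2 fold change of −0.54. The shArid3a libraries were at 44.8 and 36.0 CPM, LUC at 34.6, 34.5 and 30.3 CPM and the libraries labelled Arid3a at 34.5, 24.5 and 24.8 CPM. Lowest were the WT libraries, at 7.08, 5.88 and 6.50 CPM. Of the 50-base windows of its longest coding transcript, 3.125% occur in another gene, against 2.679% for Serpinb6a and 3.424% for Serpinb1a, so reads from these stretches are uncertain between copies.

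Serpinb9 inhibits granzyme B and lies at chr13:33003250-33017957 on the plus strand. It is the gene with the seed match printed above. Its level was 11.2, 11.3 and 7.88 CPM in miR-125b and 9.57, 13.1 and 14.8 CPM in sh-ctrl. The groups overlap, with a log2 fold change of −0.30. The shArid3a mean was 13.2 ± 1.70 CPM (n = 2). LUC libraries held 15.5, 14.6 and 15.1 CPM, the libraries labelled Arid3a 14.9, 11.5 and 12.4 CPM, and WT libraries 7.57, 8.29 and 8.01 CPM.

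Serpinb8, an inhibitor of furin, lies at chr1:107590006-107610484 on the plus strand and was near the limit of detection in Gata1s cells. Its counts were 5, 20 and 65 in miR-125b, 0, 6 and 7 in sh-ctrl and 0 and 2 in shArid3a. The miR-125b and sh-ctrl groups overlap, and replicate 3 holds most of the miR-125b counts. LUC libraries held 0, 0 and 1 counts and the libraries labelled Arid3a 2, 0 and 0. WT libraries held 71, 68 and 102 counts, a mean of 4.42 ± 0.837 CPM (n = 3).

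Serpine2, also called protease nexin 1, is secreted and inhibits thrombin, urokinase and plasmin. It lies at chr1:79794197-79861180 on the minus strand. Its level was 344, 402 and 474 CPM in miR-125b and 157, 174 and 177 CPM in sh-ctrl. The groups do not overlap, and replicate 1 is the lowest miR-125b library here, the reverse of Serpinb1a and Serpinb6a. The means were 407 ± 65.0 and 169 ± 10.3 CPM (n = 3 each), a ratio of 2.40 and a log2 fold change of 1.27.

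The shArid3a libraries held 128 and 139 CPM of Serpine2, below all 3 sh-ctrl libraries. The miR-125b mean is 3.05 times the shArid3a mean of 133 ± 7.66 CPM (n = 2). LUC libraries held 196, 217 and 202 CPM and the libraries labelled Arid3a 121, 202 and 168 CPM. Replicate 1 of the latter was the lowest, whereas it was the highest in Serpinb1a. WT libraries held 27.2, 24.5 and 24.8 CPM, below every Gata1s library.

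Serpinf1 encodes a secreted serpin that inhibits no protease and is known for limiting the growth of blood vessels. It lies at chr11:75409769-75422701 on the minus strand. Its level was 3.19, 9.42 and 15.2 CPM in miR-125b and 2.06, 2.84 and 2.88 CPM in sh-ctrl. The groups do not overlap, but the lowest miR-125b library is close to the highest control. The shArid3a libraries were at 1.03 and 1.53 CPM, and WT libraries at 5.13, 7.81 and 5.41 CPM. Markers of stromal cells, which also make Serpine2 and Serpinf1, summed to between 45.2 and 127 CPM in miR-125b and 30.6 and 63.0 CPM in sh-ctrl, with 2 of 8 at a mean of at least 1 CPM and Col3a1, Dcn, Lum and Postn at 0 in both groups. Their part in the level of either serpin was not tested. LUC libraries were at 0.293, 0.184 and 0.708 CPM and the libraries labelled Arid3a at 0.0551, 0.323 and 1.03 CPM.

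Serping1, the C1 inhibitor of the complement system (chr2:84765387-84775444, minus strand), had 0 counts in all 14 Gata1s libraries and 0, 0 and 3 counts in WT. Serpinh1 (chr7:99345376-99353239, minus strand) had 0 counts in the 14 Gata1s libraries and 3, 5 and 3 in WT. Both were at or under the limit that a count of 0 allows in every Gata1s library. Of 16 collagens and collagen-making enzymes, 11 had a mean of at least 1 CPM in sh-ctrl. Col3a1, Col5a2 and P4ha2 were at 0 there, and Col1a1 had a mean of 0.160 CPM. P4hb, which encodes a subunit of prolyl 4-hydroxylase, had a mean of 406 CPM in sh-ctrl and is the highest of that list over the 6 groups.

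Of the 9 genes, 7 passed the filter on low counts in the 10-day table, and Serping1 and Serpinh1 did not. In miR-125b against sh-ctrl, 4 of the 7 had groups that do not overlap with miR-125b higher (Serpinb1a, Serpinb6a, Serpine2 and Serpinf1), and 0 had groups that do not overlap with it lower. Over all 14004 genes kept, 22.0% had such groups with miR-125b higher and 23.0% with it lower. The members were picked from this contrast, so nothing is read from the count. With library totals in place of TMM the count was 3 higher and 1 lower, the latter being Serpinb6b and the one no longer apart Serpinf1.

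**Figure D3:**
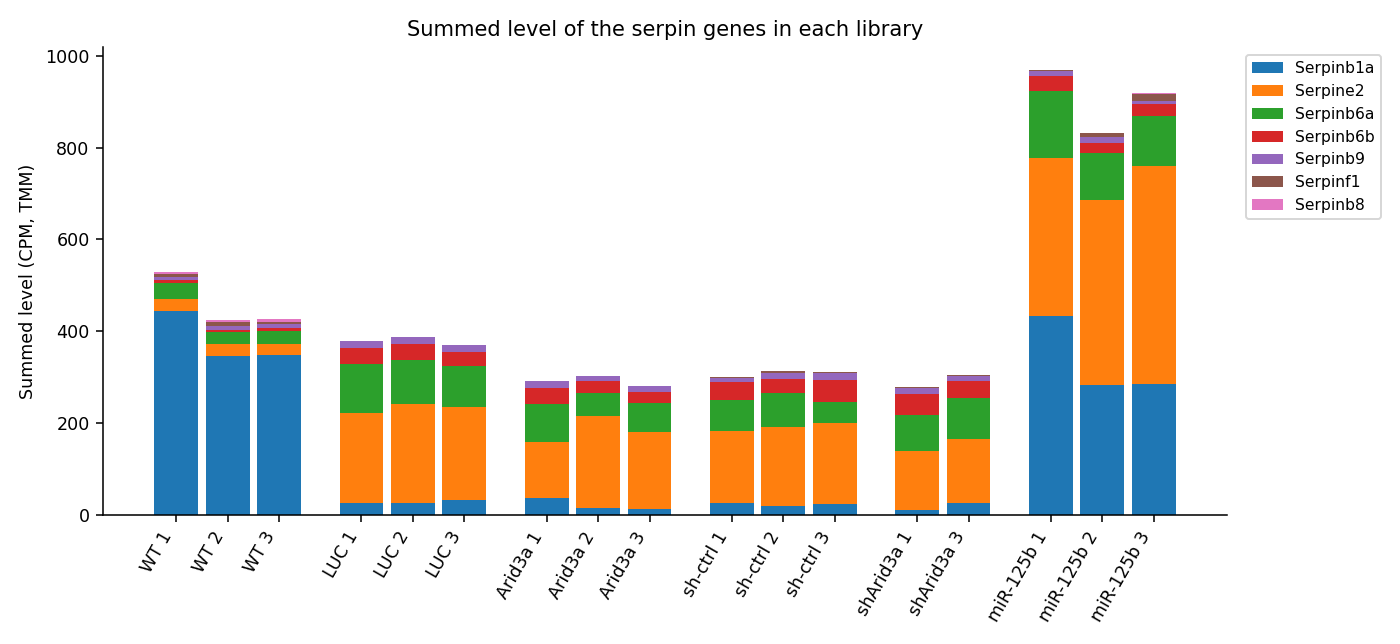
Summed level of the serpin genes in each library (stacked bars, CPM with TMM scaling, linear axis from 0), coloured by gene. The sum lies at 832 to 970 CPM in miR-125b and at 278 to 387 CPM in the other Gata1s libraries.

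Summed over the 9 genes, the level was 832 to 970 CPM in miR-125b, 300 to 312 CPM in sh-ctrl, 278 and 305 CPM in shArid3a, 371 to 387 CPM in LUC, 281 to 302 CPM in the libraries labelled Arid3a and 424 to 529 CPM in WT. Serpine2 made up 54.9% of the sum in sh-ctrl and 45.1% in miR-125b, and Serpinb1a 7.26% and 36.6%. In WT the shares were 5.58% for Serpine2 and 82.5% for Serpinb1a. Per kilobase of the authors' gene length, the levels in sh-ctrl were 20.4 CPM for Serpine2, 17.7 for Serpinb6b, 11.5 for Serpinb6a and 11.5 for Serpinb1a. Per kilobase of the longest coding transcript they were 76.6, 17.8, 37.7 and 11.6 CPM. The order of Serpinb6a and Serpinb6b thus depends on the length used. In miR-125b, Serpinb1a stood at 172 and Serpine2 at 49.1 CPM per kilobase of the authors' length, against 174 and 184 CPM by the transcript length.

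Libraries labelled Arid3a were next set against LUC, a contrast that shares no library with the one the genes were picked from. It was tested with the quasi-likelihood test of edgeR with Benjamini-Hochberg adjustment over 13495 genes. Of the 9 genes, 6 passed the filter and 0 were called at an adjusted p under 0.05, against 0.0% of all genes. At an unadjusted p under 0.05, 1 of the 6 passed, Serpinb6a, against 21.4% of all genes, and DESeq2 called 1, the same gene, against 4.41% of all genes called lower by it. Serpinb6a was at 84.2, 50.7 and 62.4 CPM in the libraries labelled Arid3a and 107, 95.6 and 89.8 CPM in LUC, and the fold change was −0.57 on the log2 scale (SE 0.18, edgeR adjusted p = 0.136). Its groups do not overlap, which holds with lower values for 14.6% of all genes.

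For Serpinb1a this contrast gave −0.40 (SE 0.40, edgeR adjusted p = 0.604), and for Serpine2 −0.32 (SE 0.17, edgeR adjusted p = 0.317). For Serpinb6b it gave −0.25 and for Serpinb9 −0.22, and for Serpinf1 0.26. A p that misses the threshold does not show that the groups are alike. Without replicate 1 of the libraries labelled Arid3a, 3 of the 6 fell, against 10.5% of all genes: Serpinb1a by 1.07 on the log2 scale, Serpinb6a by 0.78 and Serpinb6b by 0.42, with edgeR adjusted p = 0.00123, 0.00141 and 0.0113.

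In shArid3a against sh-ctrl, whose controls are also those of the miR-125b contrast, 7 of the 9 genes passed the filter and 0 were called by edgeR, against 0.0857% of 14004 genes. At an unadjusted p under 0.05, 0 of the 7 passed, against 25.8% of all genes. DESeq2 called 0 of the members, against 744 genes called higher and 856 lower of the 14004. On the log2 scale Serpine2 stood at −0.34 (SE 0.16, edgeR adjusted p = 0.204) with both shArid3a libraries below the controls. Serpinb6a had 0.44 (SE 0.22, edgeR adjusted p = 0.230) with both above them, but with library totals in place of TMM it stood at 0.26 and the groups overlap. Groups that do not overlap were found in 21.6% of all genes with shArid3a higher and 22.2% with it lower.

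The other members in this contrast were Serpinb1a at −0.29 (SE 0.32, edgeR adjusted p = 0.601) and Serpinf1 at −1.02 (SE 0.56, edgeR adjusted p = 0.278), the latter with both shArid3a libraries below the controls. Serpinb6b was at 0.05, Serpinb9 at 0.08 and Serpinb8 at −1.90, where the SE of 1.64 is nearly as large as the value. Scaling by library totals, which shifts the median of all genes by −0.19 in both 10-day contrasts, turned Serpinb6b and Serpinb9 to −0.14 and −0.12.

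**Figure D4:**
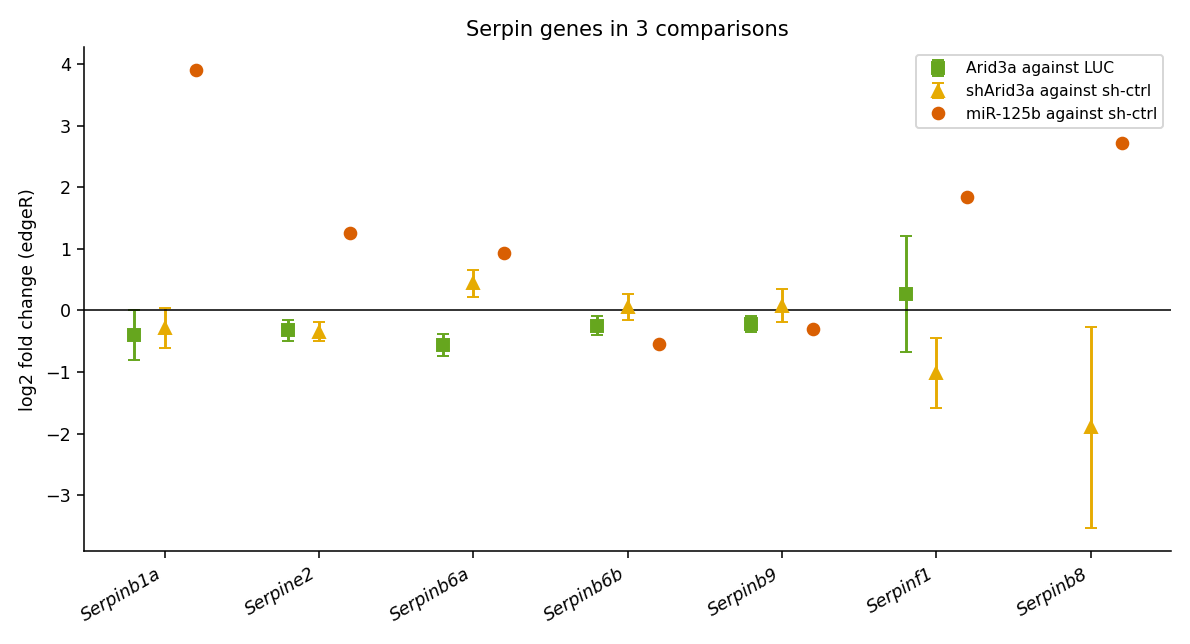
Log2 fold change of 7 serpin genes (edgeR, vertical axis) in 3 comparisons, with bars of 1 standard error for the 2 tested ones and none for miR-125b against sh-ctrl, which is a description. Serpinb1a stands at 3.90 with miR-125b and at −0.29 with shArid3a, against the same sh-ctrl libraries.

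Promoters are shown for 3 of the 4 genes whose miR-125b libraries all lay above the controls. The RefSeq table (GRCm38.p6) holds promoters of 7 of the 9 genes, 300 bases around each annotated start, and Serpinb1a and Serping1 have no entry. Both strands were searched for AGATAA, a motif of GATA factors, and for a motif of ETS factors, CCGGAAG. Read on the printed strand, the latter can stand as CTTCCGG. The motifs do not share letters in these promoters, and capitals mark their matches. They lie at chr1:79858616-79858915 (Serpine2), chr13:34002745-34003044 (the first of 2 entries for Serpinb6a) and chr11:75422574-75422873 (Serpinf1), all on the minus strand.
Serpine2: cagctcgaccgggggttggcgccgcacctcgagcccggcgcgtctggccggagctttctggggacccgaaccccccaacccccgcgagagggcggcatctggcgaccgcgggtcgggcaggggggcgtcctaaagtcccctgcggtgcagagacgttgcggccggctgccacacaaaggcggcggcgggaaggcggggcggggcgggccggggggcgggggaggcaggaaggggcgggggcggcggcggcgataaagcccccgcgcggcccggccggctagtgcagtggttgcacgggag
Serpinb6a: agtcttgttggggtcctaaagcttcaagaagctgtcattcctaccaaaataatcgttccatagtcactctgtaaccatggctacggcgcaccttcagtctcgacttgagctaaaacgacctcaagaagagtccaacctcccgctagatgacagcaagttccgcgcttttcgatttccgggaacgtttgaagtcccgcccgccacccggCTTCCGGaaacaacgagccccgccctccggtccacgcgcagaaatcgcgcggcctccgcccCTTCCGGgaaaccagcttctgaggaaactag
Serpinf1: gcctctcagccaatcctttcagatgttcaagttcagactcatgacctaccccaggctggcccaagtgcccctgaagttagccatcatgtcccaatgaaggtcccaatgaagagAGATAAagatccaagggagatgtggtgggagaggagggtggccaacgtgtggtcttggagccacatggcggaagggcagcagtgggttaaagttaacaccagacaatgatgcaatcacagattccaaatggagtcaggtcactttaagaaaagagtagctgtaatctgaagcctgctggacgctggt
The Serpine2 promoter holds neither motif, with 77.7% G and C and 41 CpG pairs, against medians of 52.7% and 7 over all promoters in the table. The printed entry of Serpinb6a holds CCGGAAG at 2 places and 25 CpG pairs. Its second entry holds neither motif, with 5 CpG pairs. The Serpinf1 promoter holds AGATAA once and 3 CpG pairs. Among the members not printed, Serpinh1 holds CCGGAAG once, and Serpinb8, Serpinb6b and Serpinb9 hold neither motif. Of 32851 promoters, 11.178% hold AGATAA and 8.858% hold CCGGAAG. These matches describe letters in these windows only.

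Serpinb1a, Serpinb6b, Serpinb9 and Serpinb6a lie in 1 cluster on chromosome 13. Serpinb1a and Serpinb6a had groups apart in miR-125b against sh-ctrl, and the groups of Serpinb6b and Serpinb9 overlap. Between 32842092 and 34002794 the annotation has 18 protein-coding genes, of which 15 are named Serpin and 4 of those reached a mean of 1 CPM in any group. Of 8 genes of the span kept by the filter in the 10-day table, 4 had groups that do not overlap with miR-125b higher and 2 with it lower, against 22.0% and 23.0% of all genes. The higher ones were Serpinb1a, Serpinb6e, Serpinb6a and Nqo2, and the lower ones Serpinb9b and Ripk1, named after their values were seen. Serpinb6e and Serpinb9b were below 1 CPM in each group. Serpinb6e, at 0.0293 CPM in sh-ctrl, 0.0147 CPM in shArid3a and 0.726 CPM in miR-125b, passed the filter through the miR-125b libraries. Serpinb9b, at 0.369, 0.109 and 0.0515 CPM in the same groups, passed it through sh-ctrl. Serpinb1a was picked for being higher in this contrast, so nothing is read from these counts.

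The genes whose pattern over the 8 libraries of the 10-day table was most like Serpinb1a were Tmem176b, Tcrg-C1, Tmem176a, Mdfi and Maged1, with root mean square differences of 0.71 to 1.04 in centred log2 CPM over 8406 genes. Tmem176b, which encodes a membrane protein, had means of 38.5 CPM in miR-125b, 4.82 CPM in sh-ctrl and 54.8 CPM in WT. Tcrg-C1, a T cell receptor gamma constant segment, had 90.0 CPM in miR-125b, 14.5 CPM in sh-ctrl and 0.423 CPM in WT, where Serpinb1a was high. Those most like Serpine2 were Rnd2, Phlda3, Epdr1, Mgat4b and Esrp2, with differences of 0.18 to 0.27. Rnd2, which encodes a small GTPase, had 50.7 CPM in miR-125b and 20.1 CPM in sh-ctrl. Without the shArid3a libraries, 2 of the 5 nearest genes were in common with each list.

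Proteases that serpins of these kinds inhibit were given as a list of 17 genes, of which 16 were found in the table. In the libraries labelled Arid3a against LUC, 0 of 6 tested were called, against 0.0% of all genes. Their median log2 fold change was 0.25 against 0.01 over all genes. In shArid3a against sh-ctrl, 0 of 8 were called, against 0.0857% of all genes, with a median of −0.13 against −0.02. With so few genes called at all, a count of 0 says little about any list. Gzmb, which encodes granzyme B, the target of Serpinb9, had the highest mean over the 6 groups, though not in WT, with means of 591 CPM in LUC, 320 CPM in the libraries labelled Arid3a, 433 CPM in sh-ctrl, 813 CPM in shArid3a, 744 CPM in miR-125b and 56.4 CPM in WT. On the log2 scale it stood at −0.88 (SE 0.15, edgeR adjusted p = 0.0774) in the first contrast and 0.91 (SE 0.30, edgeR adjusted p = 0.120) in the second. Prtn3, which encodes proteinase 3, had means of 969 CPM in WT, 69.4 CPM in sh-ctrl and 63.4 CPM in miR-125b. Ctsg, which encodes cathepsin G, had 531 CPM in WT, 1.25 CPM in sh-ctrl and 4.95 CPM in miR-125b. Elane, which encodes elastase and is named as a further target of Serpinb1a, had 292 CPM in WT, 0.163 CPM in sh-ctrl and 1.21 CPM in miR-125b. Elane and Ctsg lie higher in all miR-125b libraries than in all controls (log2 fold changes 2.87 and 1.97), and the groups of Prtn3 overlap. In miR-125b, Serpinb1a was thus at a level near that of WT with these targets far below theirs in WT, set side by side without a test.

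Receptors and binding partners of serpins (6 genes, 4 tested) had 0 called in either tested contrast, against 0.0% and 0.0857% of all genes. Highest in the mean over the 6 groups were Pnpla2 (a lipase that binds the Serpinf1 protein), at 113 CPM in sh-ctrl and 126 CPM in miR-125b, Lrp8, at 58.0 and 38.3 CPM, and Vldlr, at 49.5 and 18.8 CPM. Lrp1, which clears complexes of Serpine2 with proteases, had a mean of 133 CPM in WT and at most 0.585 CPM in the Gata1s groups. Collagens and collagen-making enzymes, the clients and co-workers of Serpinh1, had 0 of 10 and 0 of 12 called, against the same shares. P4hb, Ppib and P4ha1 had the highest means over the 6 groups, and stood at 418, 107 and 33.9 CPM in miR-125b and 406, 74.3 and 49.6 CPM in sh-ctrl. Col3a1 was at 0 in all groups.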

How the data were processed

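The data are RNA sequencing read counts per gene of 17 libraries in 3 tables. The deposited counts are raw, and the submitters' processing notes name fastp, HISAT2 2.0.5, featureCounts and mm10, with no settings. Strand use is not given in the sources used here, and replicate 2 of shArid3a was not analysed here. Tables were joined by Ensembl identifier, and positions and lengths came from the reference annotation (GRCm38). Counts were TMM-scaled in edgeR 4.0.16 (R 4.3.3), filtered by filterByExpr and fitted per table by quasi-likelihood, with Benjamini-Hochberg adjustment over all genes tested and calls under 0.05. SEs were derived from the F statistics. No test was made across tables. Alternatives were library totals, DESeq2 1.42.0 (its size factors and its test), other filters, the replicate number as a block, only the groups compared, ribosomal RNA-like genes left out, and each library left out. Scripts were tested on simulated data.

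The members and lists were chosen with earlier results of these data known. The text names all 9 members, other serpins with a mean of at least 1 CPM in any group (1 of them is not reported here), the 3 genes of highest mean over the 6 groups and any called gene of each list of protease, receptor, collagen and inhibitor genes, and the 5 genes most like Serpinb1a and Serpine2. Deviations of same-numbered sh-ctrl and miR-125b libraries correlated at 0.151 to 0.427 (3 pairs), and those of unlike-numbered ones at −0.364 to 0.205 (6 pairs). These ranges overlap and the labels name no pairing, so the numbers are not shown to pair the libraries. The main fit is unpaired.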

Additional observations from a re-analysis of the deposited data

How the results depend on the processing

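For the libraries labelled Arid3a against LUC, DESeq2 called 1 in place of 0, and leaving out 1 library gave 0 to 3, the 3 coming without Arid3a replicate 1. For shArid3a against sh-ctrl, leaving out 1 sh-ctrl library gave 0 each time, where at most 7 of all genes were called higher and 4 lower. In miR-125b against sh-ctrl, leaving out 1 library gave 4 to 6 members with groups apart, the 6 coming without miR-125b replicate 1. Fewer libraries set more genes apart: in that setting 3711 of 13925 genes were apart higher and 3708 lower. With all libraries it was 3076 and 3216 of 14004 genes, so nothing is read from the 6. With the replicate number as a block, 0 members were called in both contrasts. Over all genes it called 0 of 13495 in Arid3a against LUC. In shArid3a against sh-ctrl it called 7 higher and 8 lower of 14004. Same-numbered libraries correlated at 0.008 to 0.365 (LUC and Arid3a) and 0.161 to 0.431 (sh-ctrl and shArid3a, 2 pairs only). Correlations of unlike-numbered libraries ran from negative values up into the same ranges. Pairing by number is thus neither shown nor excluded for these libraries. Under the block, log2 fold changes changed sign for Serpinf1 (−0.045) in Arid3a against LUC, Serpinb6b (−0.075) and Serpini1 (0.056) in shArid3a against sh-ctrl and Serpine3 (−0.036) with miR-125b.

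Library totals turned Serpinb6b to −0.14 and Serpinb9 to −0.12 in shArid3a against sh-ctrl, and Serpine3 with miR-125b to −0.18. Serpine3, at 0.0016 in that comparison, also turned with no filter (−0.0012), with 10 counts in every library (−0.016), with only the groups compared (−0.0017) and without ribosomal RNA-like genes (−0.0063). Leaving out 1 library in Arid3a against LUC gave Serpinf1 −1.05 to 0.97, Serpini1 −0.49 to 0.45 and Serpina3f −0.60 to 0.36. In shArid3a against sh-ctrl it gave Serpinb1a −1.03 to 0.21, Serpinb6b −0.11 to 0.22, Serpinb9 −0.10 to 0.21, Serpini1 −0.68 to 0.11, Serpina3g −0.74 to 1.13 and Serpina3f −0.23 to 0.79. With miR-125b it gave Serpine3 −0.39 to 0.21. The cause was not tested. For miR-125b against sh-ctrl, Serpinb1a stayed between 3.67 and 4.01 and Serpine2 between 1.08 and 1.37 over 14 alternatives. Serpinb8 has no value where 10 counts are required in every library. Genes near the limit of 3 counts cannot be compared at this depth.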

Other observations

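The 59 other genes with a symbol starting Serpin were mostly silent: 52 stayed below a mean of 1 CPM in each group, and 31 had 0 counts in all 17 libraries. Those above that level numbered 7, among them Serpina3g, Serpinb2, Serpina3f, Serpini1, Serpine3 and Serpinb10. By edgeR none was called in a contrast where it was tested. Over all genes edgeR called 0.0% in Arid3a against LUC and 0.0857% in shArid3a against sh-ctrl. Serpinb10 did not pass the filter in Arid3a against LUC. Serpina3g, an inhibitor of cysteine proteases of the cathepsin family, had means of 116 CPM in WT, 56.0 CPM in LUC, 28.9 CPM in the libraries labelled Arid3a, 45.0 CPM in sh-ctrl (19.5 to 95.6 CPM), 43.8 CPM in shArid3a and 74.6 CPM in miR-125b. Without replicate 1 of the libraries labelled Arid3a, Serpina3g fell by 1.76 on the log2 scale against LUC (edgeR adjusted p = 0.000436), while with it the value was −0.95 (SE 0.47, edgeR adjusted p = 0.294). Serpinb2, an inhibitor of urokinase, had 53.1, 51.9, 72.9, 34.0, 19.9 and 44.3 CPM in the same groups, and in shArid3a against sh-ctrl its log2 fold change was −0.77 (SE 0.23, edgeR adjusted p = 0.107). Under DESeq2 the adjusted p for Serpinb2 was 0.0229, and over its alternatives it ranged from 0.0192 to 0.547. Serpina3f was at 15.8 CPM in WT, 0.322 CPM in sh-ctrl and 1.17 CPM in miR-125b.

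Protease inhibitors of other families (19 genes, 8 tested) had 0 called in either tested contrast, against 0.0% and 0.0857% of all genes. In miR-125b against sh-ctrl, a description without a test, 3 had groups that do not overlap with miR-125b higher and 2 with it lower, against 22.0% and 23.0% of all genes. The higher ones were the cystatin genes Cst3 (168 against 86.9 CPM), Cst7 (234 against 171 CPM) and Cstb (71.7 against 44.8 CPM). The lower ones were Timp3 (0.122 against 2.43 CPM), an inhibitor of metalloproteases, and Itih5 (5.66 against 27.4 CPM). Cstb, Timp3 and Itih5 were named after their values were seen. Stfa1, a stefin, was at 1103 CPM in WT and at 0 counts in all sh-ctrl and shArid3a libraries.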
